A study of Mus musculus with 12 samples.

Results

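The 38 genes described here are markers of blood and lymphatic endothelium, the cells that line vessels. They were taken by name from a table of 23423 genes in 12 libraries of mouse heart cells, and 38 of 38 were present. The rule that chose them used no measured value, but the list was drawn up with earlier results of these data known. The libraries form 6 groups of 2 from CD1 mice whose hearts were taken 1.5 days after birth. In 1 group, cardiac fibroblasts were sorted with magnetic beads against Thy1, a cell surface glycoprotein, and their libraries, labelled with the pups' age and not with a culture day, were taken as freshly isolated. In another, cardiomyocytes were isolated with a commercial kit for neonatal hearts and were likewise taken as fresh. In the other 4 groups such fibroblasts were plated on gelatin, given new medium after a night to remove unattached cells, transduced, and collected 3 days later. They received a control retrovirus, a retrovirus that carries Mef2c, Gata4 and Tbx5 (MGT), factors of the heart muscle programme, MGT and a lentivirus with a non-targeting hairpin (shNT), or MGT and a lentivirus with a hairpin against Ptbp1 (shPtbp1). The control is named lacZ in the titles and an empty vector in other labels. Replicate 2 of the shPtbp1 group carries 1 label that names Ptbp2.

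Endothelial cells hold together through VE-cadherin, claudins and other junction proteins, and they sense growth factors of the VEGF and angiopoietin families through receptor tyrosine kinases. Their identity is kept by ETS factors such as Erg and Fli1 and by Sox factors of the F group. In the heart, capillary endothelium lies beside nearly every muscle cell, the endocardium lines the chambers, and lymphatic vessels run in the outer wall. In bulk RNA a lower level of these genes can come from fewer endothelial cells or from less RNA per cell. Other cells also make some of them, and these sources cannot be told apart here.

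Depth was 49320900 to 94005200 gene-assigned reads per library, so 1 read was worth 0.0106 to 0.0203 CPM (reads per 1000000 assigned reads). Values below are scaled CPM, which are CPM divided by a factor of 0.96 to 1.07 per library. Differences were tested with limma on log2(scaled CPM + 0.5), which understates the change of low genes, and a gene was called at a Benjamini-Hochberg adjusted p below 0.05 over all 13977 genes tested. Nothing in the labels ties the 2 replicates of a group to different animals or dishes. The p-values therefore reflect only how these libraries vary, which may be technical. Ptbp1 was 81.7 and 79.1 scaled CPM with shPtbp1 and 362 and 367 with shNT, so it was lower with its hairpin in both replicates. The fibroblast marker Col1a1 was 7543 and 7174 in fresh fibroblasts and 3464 and 3512 in cardiomyocytes, and the cardiac troponin gene Tnnt2 was 179.5 and 188 in fresh fibroblasts against 2065 and 1955 in cardiomyocytes. Each marker was thus higher in the preparation of its label than in the other. In control cultures at day 3 Tnnt2 was 2436 and 2198, above both cardiomyocyte libraries. Both fresh preparations were mixed. In cardiomyocytes 10 fibroblast markers summed to a mean of 21979 scaled CPM, above the 15807 of 10 cardiomyocyte markers. In fresh fibroblasts these sums were 40940 and 1580. A level in a preparation therefore cannot be tied to 1 cell type.

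All 38 endothelial genes were present in both fresh preparations, including the fibroblasts sorted on Thy1. Their summed level was 8620.3 and 8723 scaled CPM in the fresh fibroblast libraries and 9907 and 9828 in the cardiomyocyte libraries. At day 3 it was 994 and 1078 with control vector, 1024 and 1036 with MGT, 837 and 808 with added shNT and 929 and 915 with added shPtbp1. A mean of 10 scaled CPM was reached by 38 genes in fresh fibroblasts and 37 in cardiomyocytes. At day 3 it was reached by 15 genes with control vector, 12 with MGT, 14 with shNT and 14 with shPtbp1. For 37 genes the lowest of the 4 fresh libraries lay above the highest of the 8 day 3 libraries, and Ptprb was the exception. The share of all genes with such a gap was not counted. Of the 38, 7 reached the level needed for testing only in the fresh libraries, so a gap in this direction was built in for them. In control cultures Cd93, Ptprb and Flt1 made up 66.9% of the sum, against 13.1% in fresh fibroblasts.

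**Figure D1:**
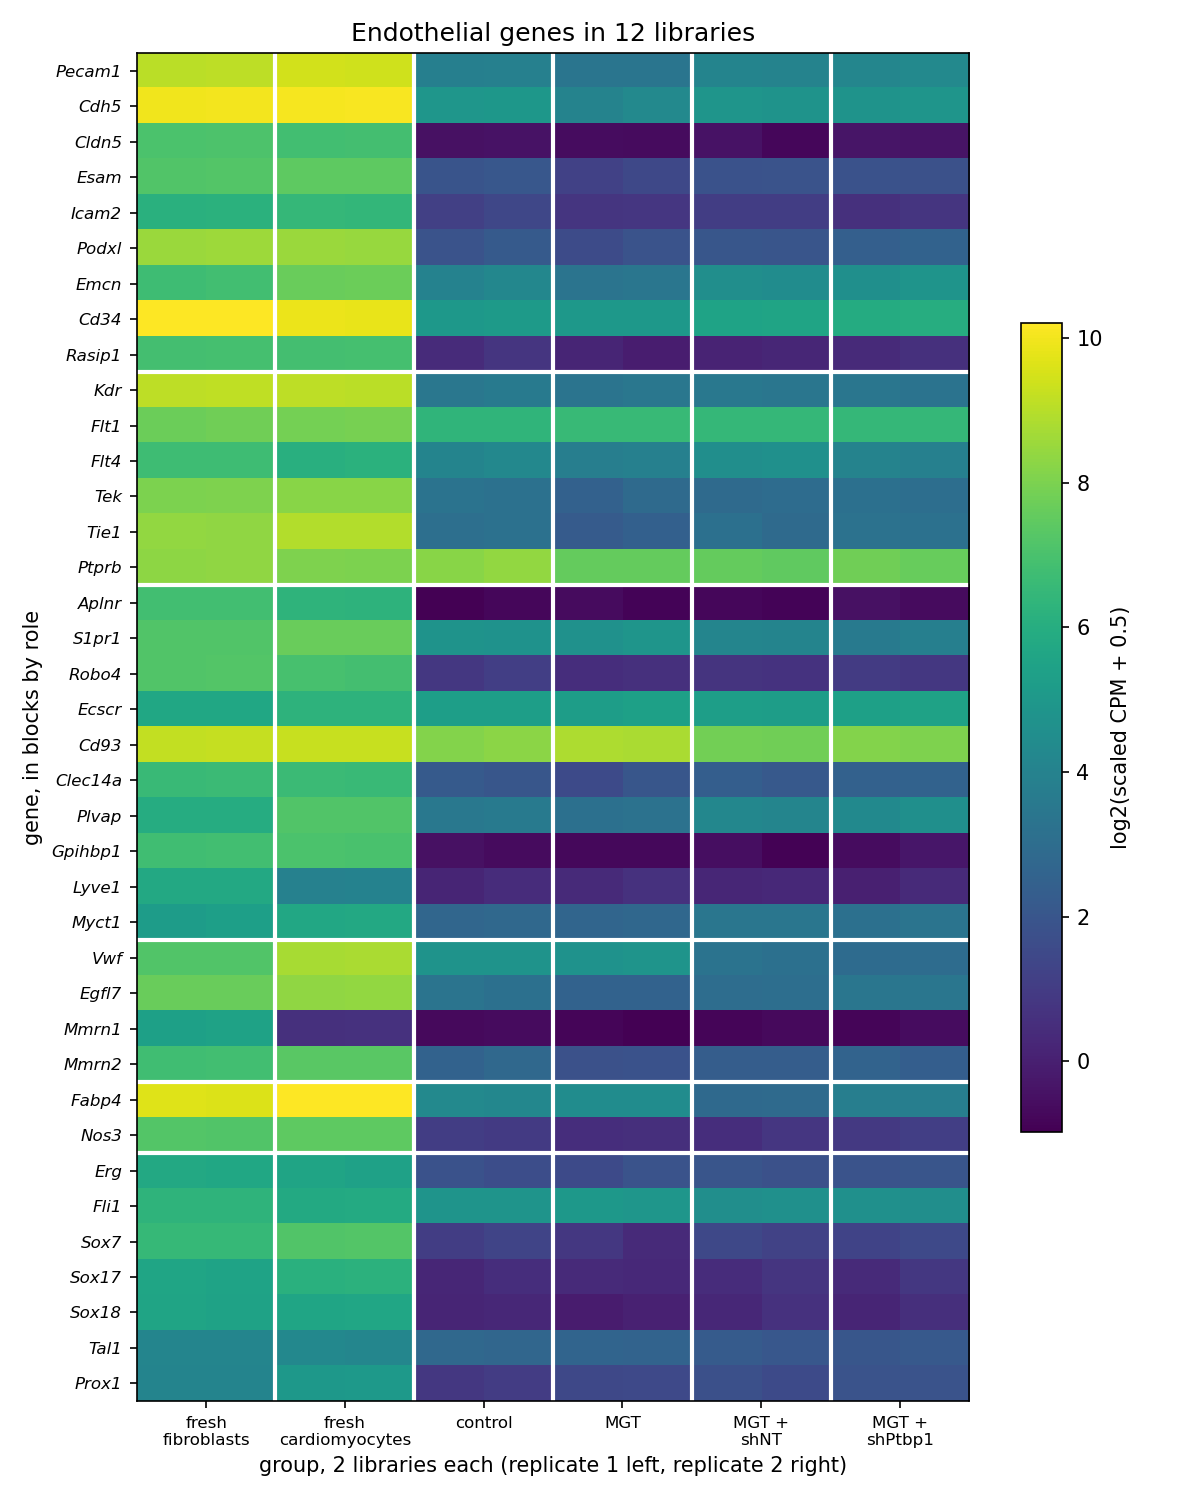
Level of each of the 38 endothelial genes (rows, in blocks by role) in each of the 12 libraries (columns, 2 per group), as log2(scaled CPM + 0.5) on a colour scale. The 4 fresh libraries are bright in nearly every row, and at day 3 only a few rows such as Ptprb, Cd93 and Flt1 stay bright.

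Among junction and adhesion genes, Cdh5 (GRCm38 chromosome 8, 104101625 to 104144511, plus strand) encodes VE-cadherin, the cadherin of endothelial junctions. Cdh5 had 1009 and 1031 scaled CPM in fresh fibroblasts, 1074 and 1088 in cardiomyocytes, and at day 3 29.4 and 30.8 with control vector, 15.8 and 18.8 with MGT, 28.1 and 26.6 with added shNT and 27.2 and 28.7 with added shPtbp1. Fresh libraries were alike, day 3 libraries were far lower, and the MGT libraries were the lowest. Pecam1, an adhesion molecule also found on platelets and leukocytes, had 536 and 547 scaled CPM in fresh fibroblasts, 701 and 679 in cardiomyocytes, and at day 3 13.8 and 14.6 with control vector, 9.97 and 9.79 with MGT, 16.6 and 16.0 with added shNT and 17.2 and 18.9 with added shPtbp1. Both MGT libraries lay below the other 6 day 3 libraries. Cldn5 (chromosome 16, 18776847 to 18778262, plus strand) encodes claudin 5, the tight junction protein of vessels. It had 131 and 134 scaled CPM in fresh fibroblasts, 114 and 115 in cardiomyocytes, and at day 3 0.227 and 0.238 with control vector, 0.154 and 0.146 with MGT, 0.241 and 0.0923 with added shNT and 0.294 and 0.268 with added shPtbp1. With 8 to 23 reads per day 3 library it was close to absent in culture. Esam, an adhesion molecule of tight junctions, had 146 and 151 scaled CPM in fresh fibroblasts, 173 and 171 in cardiomyocytes, and at day 3 3.3 and 3.67 with control vector, 1.79 and 2.23 with MGT, 3.05 and 3.18 with added shNT and 3.05 and 3.04 with added shPtbp1. Icam2, a ligand of leukocyte integrins, had 68.5 and 71.1 scaled CPM in fresh fibroblasts, 88.2 and 84.8 in cardiomyocytes, and at day 3 1.74 and 2.12 with control vector, 1.17 and 1.27 with MGT, 1.58 and 1.57 with added shNT and 1.01 and 1.21 with added shPtbp1. In both genes the MGT libraries lay below the control libraries.

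Podxl encodes podocalyxin, a sialomucin of the lumen side that mesothelium also makes. Podxl had 368 and 379 scaled CPM in fresh fibroblasts, 369 and 358 in cardiomyocytes, and at day 3 3.2 and 4.12 with control vector, 2.52 and 3.23 with MGT, 3.6 and 3.41 with added shNT and 4.79 and 5.27 with added shPtbp1. Emcn, the mucin endomucin of capillaries and veins, had 107 and 113 scaled CPM in fresh fibroblasts, 204 and 208 in cardiomyocytes, and at day 3 15.5 and 17.9 with control vector, 9.67 and 10.2 with MGT, 23.3 and 21.8 with added shNT and 23.5 and 27.3 with added shPtbp1. Emcn was higher in cardiomyocytes than in fibroblasts and highest, within culture, in the hairpin groups. Cd34 is a sialomucin of endothelium and of mesenchymal progenitors. It had 1152 and 1151 scaled CPM in fresh fibroblasts, 936 and 909.6 in cardiomyocytes, and at day 3 31.2 and 34.3 with control vector, 31.3 and 31.8 with MGT, 45.4 and 46.4 with added shNT and 59.6 and 63.7 with added shPtbp1. The 4 hairpin libraries lay above the other 4 day 3 libraries. Rasip1, a Ras-interacting protein needed for vessel lumens, had 118 and 118 scaled CPM in fresh fibroblasts, 117 and 118 in cardiomyocytes, and at day 3 0.823 and 1.17 with control vector, 0.640 and 0.448 with MGT, 0.608 and 0.669 with added shNT and 0.781 and 0.988 with added shPtbp1. No day 3 library exceeded 1.17 scaled CPM.

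Receptors of the VEGF and angiopoietin systems were high in fresh cells and low in culture, apart from Flt1 and Ptprb. Kdr (chromosome 5, 75932827 to 75978458, minus strand) encodes the main signalling receptor for VEGF-A. Kdr had 547 and 563 scaled CPM in fresh fibroblasts, 543 and 535 in cardiomyocytes, and at day 3 10.5 and 11.5 with control vector, 9.54 and 10.5 with MGT, 10.9 and 10.3 with added shNT and 10.3 and 9.19 with added shPtbp1. The 8 day 3 libraries lay between 9.19 and 11.5, and both control libraries lay above the MGT and shPtbp1 libraries by a narrow margin. Flt1 (chromosome 5, 147561604 to 147726011, minus strand) encodes a VEGF receptor that also has a soluble decoy form. It had 210.2 and 218 scaled CPM in fresh fibroblasts, 235 and 242 in cardiomyocytes, and at day 3 80.0 and 80.4 with control vector, 93.3 and 93.5 with MGT, 89.4 and 87.4 with added shNT and 88.5 and 88.5 with added shPtbp1. The control mean was 37.4% of the fresh fibroblast mean, and control was the lowest group. Flt4, the VEGF-C receptor of lymphatic endothelium, had 107 and 108 scaled CPM in fresh fibroblasts, 68.2 and 70.5 in cardiomyocytes, and at day 3 16.6 and 18.7 with control vector, 13.6 and 14.6 with MGT, 23.4 and 24.2 with added shNT and 15.8 and 14.4 with added shPtbp1. Flt4 was higher in fibroblasts than in cardiomyocytes and, at day 3, highest with shNT. Tek, the angiopoietin receptor, had 259.9 and 262 scaled CPM in fresh fibroblasts, 298 and 298 in cardiomyocytes, and at day 3 9.28 and 8.76 with control vector, 5.23 and 6.86 with MGT, 7.01 and 7.51 with added shNT and 8.48 and 7.99 with added shPtbp1. Its partner receptor Tie1 (chromosome 4, 118471191 to 118490061, minus strand) had 332 and 331 scaled CPM in fresh fibroblasts, 486 and 482 in cardiomyocytes, and at day 3 8.12 and 8.73 with control vector, 4.25 and 4.95 with MGT, 8.31 and 6.93 with added shNT and 8.87 and 8.67 with added shPtbp1. Both receptors were lowest with MGT. Ptprb (chromosome 10, 116275523 to 116389535, plus strand) encodes VE-PTP, a phosphatase that acts on Tek and VE-cadherin. Ptprb had 319.6 and 332 scaled CPM in fresh fibroblasts, 261 and 258 in cardiomyocytes, and at day 3 295 and 341 with control vector, 187 and 188 with MGT, 192 and 178 with added shNT and 218 and 194 with added shPtbp1. Control cultures overlapped fresh fibroblasts in this gene, and the 6 libraries with MGT lay below both.

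The RefSeq table (GRCm38.p6) held promoter windows, from 250 bases before to 50 after a start site, for 17 of the 38 genes, in 23 windows. The 4 below are shown because they span the fall from fresh to cultured cells, from Cldn5 with the largest fall to Flt1 with the smallest of them. Capitals mark the core of ETS factor sites, GGAA or its reverse complement TTCC, and strands are 5′ to 3′ along the gene. Windows lie at chr16:18776597-18776896 (plus strand), chr5:75978406-75978705 (minus), chr4:118489800-118490099 (minus) and chr5:147725962-147726261 (minus).
Cldn5: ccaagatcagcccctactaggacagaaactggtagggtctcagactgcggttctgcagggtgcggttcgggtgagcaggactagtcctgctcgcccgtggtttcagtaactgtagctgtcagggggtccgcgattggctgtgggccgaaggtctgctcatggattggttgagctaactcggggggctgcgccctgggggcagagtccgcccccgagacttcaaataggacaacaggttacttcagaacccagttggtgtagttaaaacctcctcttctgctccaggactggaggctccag
Kdr: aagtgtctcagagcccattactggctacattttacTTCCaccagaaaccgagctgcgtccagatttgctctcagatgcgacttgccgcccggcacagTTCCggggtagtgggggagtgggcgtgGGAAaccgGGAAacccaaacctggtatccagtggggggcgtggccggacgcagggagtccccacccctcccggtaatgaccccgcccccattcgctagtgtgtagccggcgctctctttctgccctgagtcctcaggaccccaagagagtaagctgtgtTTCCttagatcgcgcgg
Tie1: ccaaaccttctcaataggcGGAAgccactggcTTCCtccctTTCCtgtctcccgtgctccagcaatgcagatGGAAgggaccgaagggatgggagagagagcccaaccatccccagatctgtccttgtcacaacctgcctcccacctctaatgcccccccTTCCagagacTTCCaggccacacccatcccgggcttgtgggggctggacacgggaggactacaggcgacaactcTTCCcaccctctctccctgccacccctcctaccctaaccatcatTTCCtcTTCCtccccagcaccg
Flt1: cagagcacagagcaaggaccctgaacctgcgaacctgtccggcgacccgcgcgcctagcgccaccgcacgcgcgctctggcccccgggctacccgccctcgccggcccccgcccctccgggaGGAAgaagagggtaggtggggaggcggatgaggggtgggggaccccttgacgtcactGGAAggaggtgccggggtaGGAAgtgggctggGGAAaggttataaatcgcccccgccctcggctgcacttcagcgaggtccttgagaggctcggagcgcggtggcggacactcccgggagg
The Tie1 window held 9 matches, Kdr 5, Flt1 4 and Cldn5 0. These 4 windows were picked for the size of the fall, and a link between matches and the fall was not tested. GGAA was found on either strand in 96.0% of all 32851 windows, and in 95.7% of the 23 windows of the endothelial genes. The longer CAGGAA, which contains it, was in 30.6% and 52.2%, CCGGAA, which also contains it, in 14.9% and 4.35%, and the GATA motif AGATAA in 11.2% and 17.4%. Matches are letters in a window and not shown to be bound.

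Other surface proteins ranged in culture from a few reads, for Aplnr, to the highest level per kb of the list, for Cd93. Aplnr, the receptor for apelin, had 114 and 114 scaled CPM in fresh fibroblasts, 77.3 and 76.6 in cardiomyocytes, and at day 3 0.0108 and 0.0794 with control vector, 0.142 and 0.0448 with MGT, 0.0803 and 0.0577 with added shNT and 0.218 and 0.141 with added shPtbp1. The control libraries held 1 and 7 reads of it. Gpihbp1, which carries lipoprotein lipase across capillary endothelium, had 110.0 and 115 scaled CPM in fresh fibroblasts, 131 and 129 in cardiomyocytes, and at day 3 0.216 and 0.148 with control vector, 0.0948 and 0.101 with MGT, 0.183 and 0.0346 with added shNT and 0.154 and 0.311 with added shPtbp1. Robo4, an endothelial roundabout receptor, had 145 and 147 scaled CPM in fresh fibroblasts, 122 and 117 in cardiomyocytes, and at day 3 1.31 and 1.63 with control vector, 0.924 and 0.975 with MGT, 1.12 and 1.1 with added shNT and 1.47 and 1.27 with added shPtbp1. These 3 genes were at most 1.63 scaled CPM in any day 3 library. Clec14a, a lectin-like protein of vessels, had 96.0 and 99.1 scaled CPM in fresh fibroblasts, 100.3 and 97.2 in cardiomyocytes, and at day 3 4.13 and 3.52 with control vector, 2.39 and 3.56 with MGT, 4.61 and 4.01 with added shNT and 5.16 and 5.32 with added shPtbp1. Plvap, the protein of the diaphragms that close endothelial pores, had 61.6 and 61.3 scaled CPM in fresh fibroblasts, 144 and 144 in cardiomyocytes, and at day 3 10.8 and 11.5 with control vector, 8.44 and 9.11 with MGT, 18.2 and 16.9 with added shNT and 19.9 and 23.9 with added shPtbp1. Plvap was higher in cardiomyocytes than in fibroblasts, and higher in the hairpin groups than in control or MGT. Myct1, a small membrane protein of endothelium, had 36.9 and 39.7 scaled CPM in fresh fibroblasts, 52.6 and 54.0 in cardiomyocytes, and at day 3 6.18 and 6.55 with control vector, 5.87 and 6.21 with MGT, 10.1 and 10.1 with added shNT and 8.36 and 9.54 with added shPtbp1. Lyve1 encodes a hyaluronan receptor of lymphatic vessels that resident macrophages also carry. It had 54.1 and 54.6 scaled CPM in fresh fibroblasts, 15.0 and 15.6 in cardiomyocytes, and at day 3 0.628 and 0.874 with control vector, 0.770 and 1.02 with MGT, 0.688 and 0.738 with added shNT and 0.512 and 0.805 with added shPtbp1. The fibroblast mean was 3.55 times the cardiomyocyte mean.

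S1pr1, the sphingosine 1-phosphate receptor of vessels, is also used by leukocytes. S1pr1 had 142 and 146 scaled CPM in fresh fibroblasts, 204 and 200.3 in cardiomyocytes, and at day 3 27.3 and 26.2 with control vector, 25.3 and 28.2 with MGT, 17.1 and 16.4 with added shNT and 11.5 and 13.8 with added shPtbp1. The 4 hairpin libraries lay below the other 4 cultures. Ecscr, a regulator of endothelial chemotaxis, had 51.7 and 51.7 scaled CPM in fresh fibroblasts, 75.9 and 75.1 in cardiomyocytes, and at day 3 38.3 and 38.3 with control vector, 37.7 and 41.6 with MGT, 39.2 and 37.9 with added shNT and 41.4 and 44.2 with added shPtbp1. The control mean was 74.1% of the fresh fibroblast mean. Another gene on the opposite strand overlaps it, and reads of the pair cannot be told apart without the strand setting of the counting. Genes that overlap Egfl7, Plvap, Cd34 and Nos3 set the same limit for those. Izumo1 overlaps Rasip1 on the same strand, so the strand setting would not separate that pair. Cd93 (chromosome 2, 148436640 to 148443563, minus strand) is a surface glycoprotein of endothelium and myeloid cells. It had 586 and 602 scaled CPM in fresh fibroblasts, 616 and 612 in cardiomyocytes, and at day 3 282 and 308 with control vector, 455 and 449 with MGT, 226 and 219.7 with added shNT and 279 and 267 with added shPtbp1. MGT was the highest day 3 group and shNT the lowest, control and shPtbp1 lay close together between them, and no 2 of the 4 groups overlapped.

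Among secreted proteins, Vwf (chromosome 6, 125546774 to 125686679, plus strand) encodes von Willebrand factor, the clotting protein stored by endothelium and megakaryocytes. Vwf had 146 and 145 scaled CPM in fresh fibroblasts, 435 and 439 in cardiomyocytes, and at day 3 26.8 and 27.0 with control vector, 26.1 and 27.3 with MGT, 9.33 and 8.51 with added shNT and 7.12 and 7.5 with added shPtbp1. Cardiomyocytes stood far above fibroblasts, and the hairpin groups far below control and MGT. Mmrn1 (chromosome 6, 60924976 to 60989378, plus strand) encodes multimerin 1, found in platelets and lymphatic endothelium. It had 41.6 and 43.3 scaled CPM in fresh fibroblasts, 0.977 and 1.03 in cardiomyocytes, and at day 3 0.130 and 0.136 with control vector, 0.0711 and 0.0112 with MGT, 0.0688 and 0.115 with added shNT and 0.0640 and 0.169 with added shPtbp1. Fresh fibroblasts were the only group above 2 scaled CPM. Mmrn2, a matrix protein that binds Cd93 and Clec14a, had 111 and 113 scaled CPM in fresh fibroblasts, 162 and 163 in cardiomyocytes, and at day 3 5.42 and 6.5 with control vector, 3.05 and 3.13 with MGT, 4.47 and 4.49 with added shNT and 5.49 and 4.62 with added shPtbp1. Egfl7, a secreted factor of vessel growth, had 201 and 199 scaled CPM in fresh fibroblasts, 329 and 336 in cardiomyocytes, and at day 3 9.59 and 8.48 with control vector, 5.33 and 5.37 with MGT, 7.69 and 7.96 with added shNT and 10.1 and 10.2 with added shPtbp1. Both were lowest with MGT. Of the metabolic genes, Fabp4 (chromosome 3, 10204088 to 10208576, minus strand) is a fatty acid carrier of capillaries, fat cells and macrophages. Fabp4 had 812 and 796 scaled CPM in fresh fibroblasts, 1185 and 1154 in cardiomyocytes, and at day 3 19.4 and 17.7 with control vector, 21.4 and 21.3 with MGT, 6.82 and 6.99 with added shNT and 13.4 and 13.7 with added shPtbp1. In culture the order was MGT, control, shPtbp1 and shNT, without overlap. Nos3, the endothelial nitric oxide synthase, had 147 and 143 scaled CPM in fresh fibroblasts, 174 and 174 in cardiomyocytes, and at day 3 1.59 and 1.38 with control vector, 0.924 and 0.964 with MGT, 0.917 and 1.22 with added shNT and 1.34 and 1.65 with added shPtbp1.

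Transcription factors of the endothelial programme were present in both fresh preparations and lower in every day 3 library. Erg, the ETS factor most particular to endothelium, had 53.8 and 51.5 scaled CPM in fresh fibroblasts, 46.4 and 42.5 in cardiomyocytes, and at day 3 3.14 and 2.72 with control vector, 2.41 and 3.18 with MGT, 3.44 and 3.0 with added shNT and 3.19 and 3.43 with added shPtbp1. Fli1, an ETS factor also of blood cells, had 77.4 and 77.9 scaled CPM in fresh fibroblasts, 56.8 and 58.1 in cardiomyocytes, and at day 3 27.5 and 27.8 with control vector, 31.5 and 29.8 with MGT, 22.7 and 24.3 with added shNT and 24.4 and 22.9 with added shPtbp1. Every day 3 library lay between 22.7 and 31.5, with MGT the highest group. Sox7 had 92.5 and 92.5 scaled CPM in fresh fibroblasts, 146 and 151 in cardiomyocytes, and at day 3 1.56 and 2.02 with control vector, 1.32 and 0.796 with MGT, 2.24 and 1.87 with added shNT and 1.91 and 2.36 with added shPtbp1. Sox17, of the same group of Sox factors, had 48.1 and 45.2 scaled CPM in fresh fibroblasts, 68.6 and 73.5 in cardiomyocytes, and at day 3 0.671 and 0.908 with control vector, 0.782 and 0.762 with MGT, 0.849 and 1.19 with added shNT and 0.768 and 1.28 with added shPtbp1. Sox18, the other one, had 46.6 and 43.9 scaled CPM in fresh fibroblasts, 48.4 and 49.4 in cardiomyocytes, and at day 3 0.649 and 0.704 with control vector, 0.415 and 0.527 with MGT, 0.722 and 1.05 with added shNT and 0.653 and 0.932 with added shPtbp1. No Sox gene of the 3 exceeded 2.36 scaled CPM in culture. Tal1, a factor of blood and early vessels, had 16.9 and 17.0 scaled CPM in fresh fibroblasts, 18.3 and 17.6 in cardiomyocytes, and at day 3 6.47 and 6.17 with control vector, 5.75 and 5.56 with MGT, 4.25 and 3.75 with added shNT and 3.55 and 3.98 with added shPtbp1. Prox1, the master factor of lymphatic identity that cardiomyocytes also use, had 16.4 and 16.6 scaled CPM in fresh fibroblasts, 31.3 and 32.8 in cardiomyocytes, and at day 3 1.31 and 1.5 with control vector, 2.2 and 2.31 with MGT, 2.94 and 2.39 with added shNT and 3.23 and 3.16 with added shPtbp1. Both cardiomyocyte libraries lay above both fibroblast libraries.

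Levels of different genes were compared per kb of exon (union of GENCODE M21 exons). In fresh fibroblasts the highest were Cdh5 at 243 scaled CPM per kb, Fabp4 at 179 and Cd34 at 158, and the lowest were Prox1 at 1.97 and Tal1 at 3.88. In cardiomyocytes Fabp4 at 261 and Cdh5 at 257 led again. In control cultures Cd93 led at 44.2, followed by Ptprb at 23.9 and Ecscr at 21.9, with Cdh5 at 7.16.

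Fresh cardiomyocytes and fresh fibroblasts, the primary cells the series sets beside its cultures, were compared first. Both held the defining vascular genes, and a few members differed strongly. Vwf was higher in cardiomyocytes (437 ± 2.38 against 145 ± 0.656 scaled CPM, mean ± SD, n = 2), with a log2 fold change of 1.58 ± 0.0489 (SE) and an adjusted p of 7.75e-16. Plvap, Prox1, Emcn and Egfl7 were higher by 1.22, 0.94, 0.90 and 0.73 in log2 units. Mmrn1 was 42.4 times as high in fibroblasts (42.4 ± 1.18 against 1.0 ± 0.0345, log2 fold change -4.84 ± 0.126, adjusted p = 5.97e-17), and Lyve1 and Flt4 were also higher there (log2 fold changes -1.80 and -0.62). Of the 4 genes tied to lymphatic vessels, Mmrn1, Lyve1 and Flt4 were thus lower in cardiomyocytes and Prox1 was higher.

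By limma, 19 of 38 genes were higher in cardiomyocytes, 9 were lower and 10 were not called. Over all genes 76.9% were called, 35% higher and 41.9% lower, so the share called was near the background. The median log2 fold change was 0.17, against -0.05 over all genes. Changes of at least 2-fold numbered 2 higher (Vwf and Plvap) and 2 lower (Mmrn1 and Lyve1), with 8.2% and 4.03% of all genes past that size. Cdh5 (0.08, adjusted p = 0.187), Kdr (-0.04, 0.512), Cd93 (0.05, 0.288) and Cldn5 (-0.21, 0.0815) did not pass. By role, 4 of 9 junction and adhesion genes were higher and 1 was lower (Cd34, -0.32). Of the 6 receptor kinases and their phosphatase 3 were higher and 2 lower, and of the 7 transcription factors 3 were higher and 2 lower. Sox7 and Sox17 were higher by 0.68 and 0.60 in log2 units, and the ETS genes Fli1 and Erg were lower (log2 fold changes -0.43 and -0.24). The Erg call was among 6 that ended in at least 1 alternative (adjusted p up to 0.232), with Tek, Esam, Nos3, Robo4 and Icam2.

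Markers of blood cells differed too. The summed level of 8 erythroid markers was 43.5 and 45.3 scaled CPM in cardiomyocytes and 14.7 and 14.3 in fibroblasts, and that of 8 lymphocyte markers 22.6 and 22.0 against 13.2 and 11.1. Megakaryocytes are a known source of Vwf and Mmrn1, and the sums of 8 of their markers were 22.7 and 23.2 in cardiomyocytes against 35.3 and 35.2 in fibroblasts. Most of each sum was Pf4, which cardiac macrophages can also make, at 15.4 and 15.4 in cardiomyocytes and 28.2 and 28.3 in fibroblasts. Itga2b, another of the 8, was 3.78 and 4.18 against 3.46 and 3.59. The sums of 10 macrophage markers were 747 and 744 against 1143 and 1138. Their part in the endothelial values was not tested.

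Of 50 other genes of endothelial signalling and identity, 21 were higher in cardiomyocytes and 20 lower. The share called was 82%, near the 76.9% of all genes. The vasoconstrictor gene Edn1 (144 ± 3.58 against 23.6 ± 0.794), the transcription factor Gata2 (89.0 ± 0.861 against 35.2 ± 0.482) and the endocardial natriuretic peptide receptor Npr3 (126 ± 1.21 against 56.8 ± 0.760) were higher, with log2 fold changes of 2.58, 1.33 and 1.14. Vegfb, Angptl4, Procr and Angpt2 were also at least 2-fold higher, with log2 fold changes of 1.14, 1.12, 1.01 and 1.00. E-selectin Sele (109.9 ± 3.17 against 253 ± 6.0) and the lymphatic growth factor Figf (5.26 ± 0.0479 against 14.8 ± 1.44) were higher in fibroblasts.

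**Figure D2:**
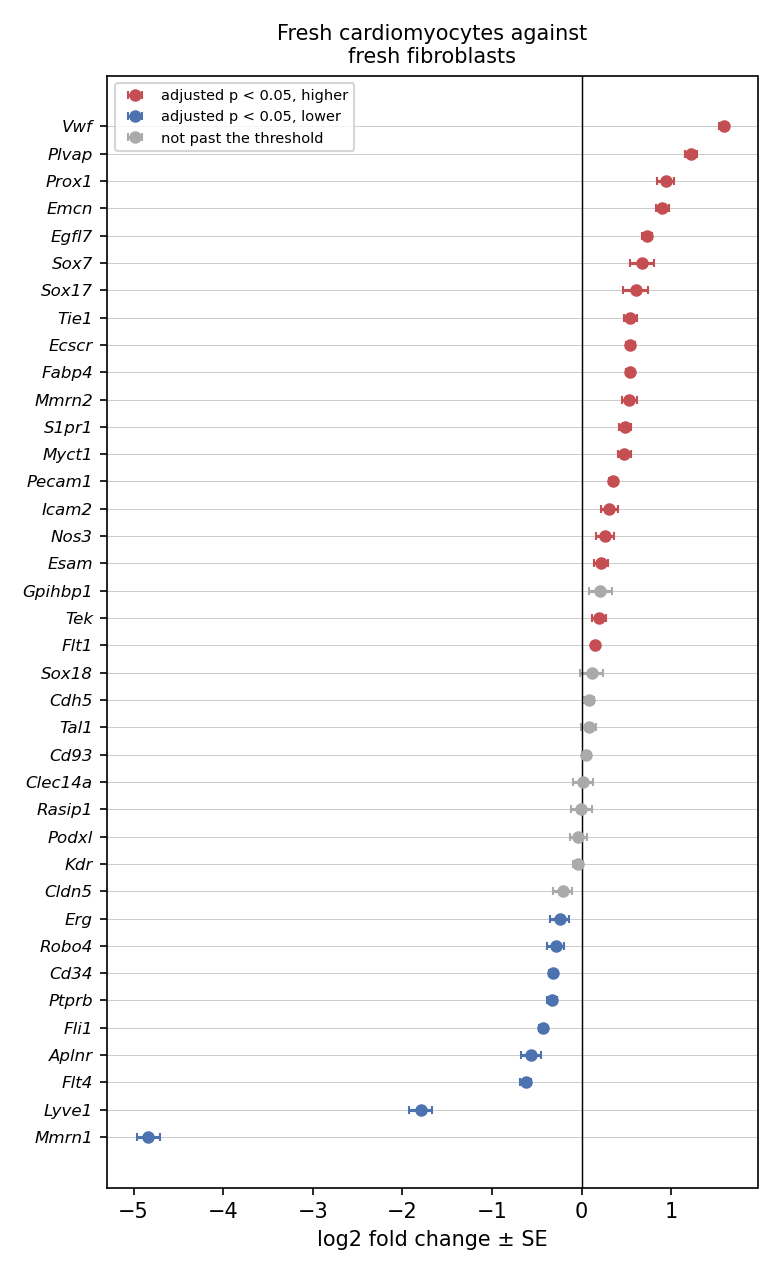
Log2 fold change of each endothelial gene (rows) between fresh cardiomyocytes and fresh fibroblasts, with SE; values to the right are higher in cardiomyocytes, and colour marks the limma call. Most genes lie within 1 log2 unit of 0, Vwf and Plvap lie furthest right and Mmrn1 at -4.84 and Lyve1 furthest left.

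Control cultures were set against fresh fibroblasts, the kind of cells that were plated. The comparison joins the effects of plating, removal of unattached cells, culture up to 3 days after transduction and control virus. These cannot be told apart. Nearly the whole endothelial list fell. Cdh5 was 33.9-fold lower (30.1 ± 0.989 against 1019.8 ± 15.8, log2 fold change -5.06 ± 0.0573, adjusted p = 4.8e-23), Kdr 50.5-fold and Pecam1 38.1-fold. Aplnr went from 114 ± 0.442 to 0.0451 ± 0.0485 scaled CPM, Cldn5 from 133 ± 1.72 to 0.233 ± 0.00776 and Gpihbp1 from 112 ± 3.21 to 0.182 ± 0.0488, with log2 fold changes of -7.72, -7.51 and -7.37. At so few reads the fitted value depends on the pseudocount. Ptprb did not pass (318 ± 32.2 against 326 ± 8.75, -0.04 ± 0.0570, adjusted p = 0.546).

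By limma, 37 of 38 genes were lower and 0 were higher, with 0 higher at an unadjusted p below 0.05 and 0 by edgeR. Over all genes 42.6% were lower and 44.5% higher, 87% in all. A fall of at least 2-fold was called in 36 of 38, against 17.4% of all genes. The median log2 fold change was -4.96, against 0.03 over all genes. In 23 genes the control mean was below 5% of the fresh mean. In 6 it was below 1% (Aplnr, Gpihbp1, Cldn5, Mmrn1, Rasip1 and Podxl). The share of all genes below these cuts was not counted. All 38 passed the filter on low values in the fresh libraries and 31 in the 8 day 3 libraries alone. The other 7 (Aplnr, Cldn5, Gpihbp1, Lyve1, Mmrn1, Rasip1 and Sox18) entered this test only through their fresh level, so a fall was the only change they could show. They include all of the genes below 1% except Podxl. Of the 31, 30 were lower, 29 of them at least 2-fold, with a median log2 fold change of -4.40. Without further scaling all genes shift by -0.13 log2 units in this comparison, and Ptprb is then called lower (38 of 38).

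Ecscr fell least among those called (-0.43), followed by Cd93 (-1.01), Tal1 (-1.36), Flt1 (-1.41) and Fli1 (-1.47). Plvap, Vwf, S1pr1, Myct1, Flt4 and Emcn followed, at -2.41 to -2.69. All junction and adhesion genes fell (9 of 9), with log2 fold changes from -2.69 for Emcn to -7.51 for Cldn5. Among transcription factors, the values were -5.35 for Sox7, -5.28 for Sox18, -5.20 for Sox17 and -3.96 for Erg. Those of Nos3 and Fabp4 were -6.20 and -5.40. Every one of these calls held in each alternative that was run.

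Markers of other cells that share the tissue went different ways. Over all genes 42.6% were lower and 44.5% higher. The pericyte genes Rgs5 (172 and 181 to 2.66 and 2.39), Kcnj8 (45.8 and 46.3 to 0.498 and 0.204) and Abcc9 (268 and 272 to 1.95 and 1.66) fell. Of the 10 markers of mural cells to which they belong, 6 fell, 3 rose and 1 was not called. The smooth muscle actin gene Acta2 rose from 486 and 500.0 to 5409.8 and 5645, the desmin gene Des from 73.9 and 70.0 to 451 and 471 and Cspg4 from 123 and 115 to 136 and 170.4. Pdgfrb was 504 and 511 and then 498 and 515. Macrophages can make Lyve1, Fabp4 and Cd93. Of 10 macrophage markers 8 rose and 2 fell (Csf1r and Cx3cr1), and their sum was 1143 and 1138 in fresh fibroblasts and 4010.5 and 3776 in control cultures. The largest part of the control sum was the lysozyme gene Lyz2, at 162 and 158 in fresh fibroblasts and 2255 and 2053 in control cultures. Of 10 fibroblast markers 5 were lower and 3 higher, with Thy1 at 144 and 147 and then 301 and 314. How far cells of these kinds set the level of the endothelial genes was not tested.

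Of the 50 other endothelial signalling and identity genes, 38 were lower and 7 higher in control cultures. The share called was 90%, near the 87% of all genes, of which 42.6% were lower and 44.5% higher. Notch signalling genes fell, with the ligand Dll4 from 49.8 ± 1.88 to 0.296 ± 0.210, the receptor Notch4 from 147 ± 0.661 to 4.35 ± 0.678 and the target Hey1 from 44.8 ± 0.678 to 0.367 ± 0.0592. The flow-responsive factor Klf2 fell from 222 ± 9.76 to 8.67 ± 0.886, caveolin Cav1 from 786 ± 22.6 to 80.8 ± 0.879 and E-selectin Sele from 253 ± 6.0 to 3.83 ± 0.355. The adhesion receptors listed under the symbols Eltd1 and Gpr116 also fell (log2 fold changes -5.75 and -5.72). Slit3, a ligand of roundabout receptors that fibroblasts make (289 ± 19.1 against 65.2 ± 1.17), and Figf (45.6 ± 3.16 against 14.8 ± 1.44) rose.

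**Figure D3:**
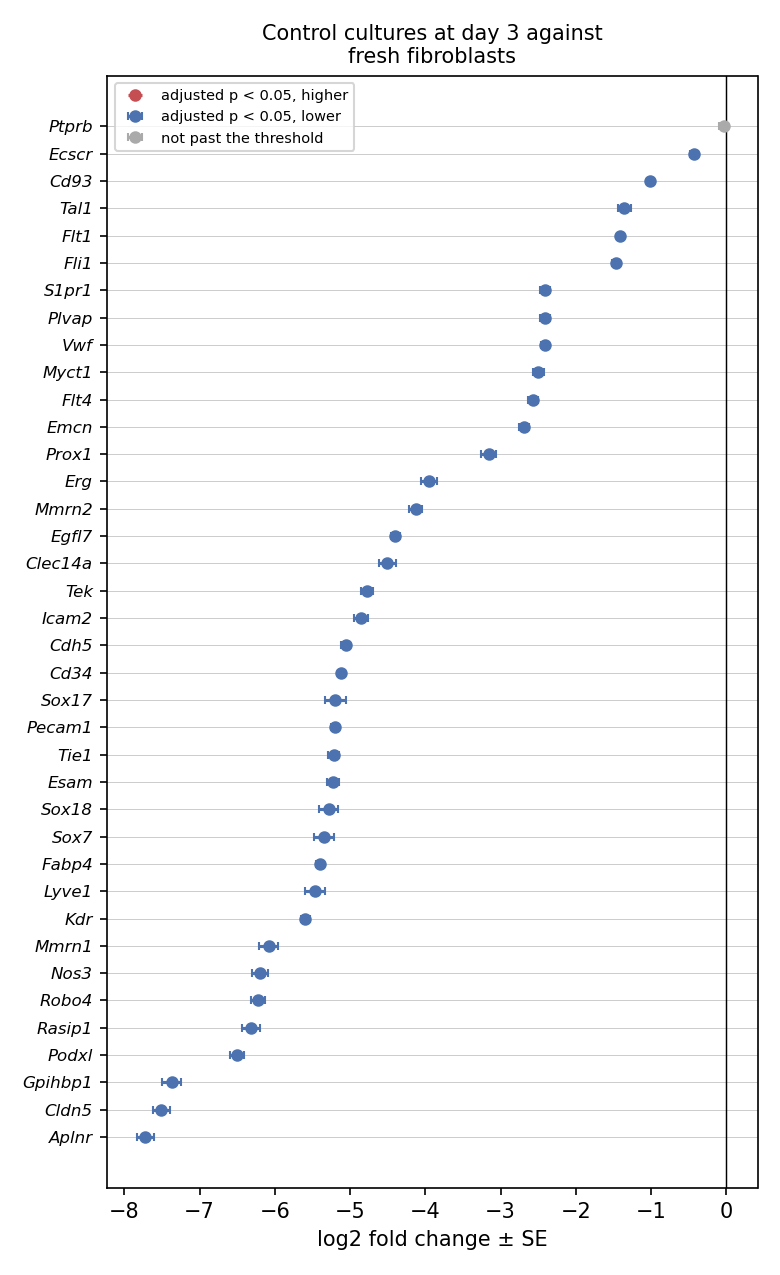
Log2 fold change of each endothelial gene (rows) between control cultures at day 3 and fresh fibroblasts, with SE, in order of size. All values lie at or left of 0, from Ptprb at -0.04 to Aplnr at -7.72.

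MGT against control vector asked whether the reprogramming factors moved the level of the listed genes at day 3, whichever cells it came from. Most junction genes and receptor kinases fell, and 5 genes rose. Cdh5 went from 30.1 ± 0.989 to 17.3 ± 2.17 scaled CPM (log2 fold change -0.79 ± 0.0573, adjusted p = 4.45e-09). Mmrn2 (3.09 ± 0.0581 against 5.96 ± 0.763, -0.84), Tie1 (4.6 ± 0.495 against 8.42 ± 0.430, -0.81) and Ptprb (187 ± 0.320 against 318 ± 32.2, -0.76) also fell. Cd93 rose from 295 ± 18.5 to 452 ± 4.44 (0.62 ± 0.0402, adjusted p = 9.76e-10).

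By limma 18 of 38 genes were lower with MGT and 5 higher, and 15 were not called. Background shares were 17.6% lower and 18% higher, 35.7% in all. The median log2 fold change was -0.25, against -0.01 over all genes. No gene on the list was called with a 2-fold change, a size passed by 0.107% of all genes downwards and 0.773% upwards. Emcn, Egfl7, Esam, Sox7, Tek and Pecam1 fell, with log2 fold changes of -0.72, -0.70, -0.67, -0.57, -0.55 and -0.50. Lower were 7 of 9 junction and adhesion genes, 4 of 6 receptor kinases and their phosphatase, and 3 of 10 other surface proteins. Besides Cd93, Prox1 (2.26 ± 0.0744 against 1.4 ± 0.133, 0.54), Flt1 (0.22), Fabp4 (0.20) and Fli1 (0.15) rose. Kdr (-0.13, adjusted p = 0.0993), Vwf (-0.01, 0.889) and S1pr1 (adjusted p = 0.986) did not pass. In a fit of the 8 day 3 libraries alone 31 of the 38 genes passed the filter, and 15 were lower and 5 higher.

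The calls of Fli1, Sox7, Clec14a and Podxl ended in at least 1 alternative, and for Clec14a the log2 fold change ran from -0.58 to -0.09. Of 8 epicardial markers 4 fell with MGT and 2 rose, and of 10 fibroblast markers 8 fell and 1 rose. Over all genes 17.6% fell and 18% rose. The macrophage sum stood at 4047 and 3933 with MGT against 4010.5 and 3776 with control vector, and 4 of 10 markers were lower and 1 higher. Cardiomyocytes also use Prox1, and 7 of 10 cardiomyocyte markers rose and 1 fell. The part of these cells in the result was not tested.

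Of the 50 other endothelial genes, 22 were lower and 9 higher with MGT. The share called was 62%, against 35.7% of all genes. Notch4 (2.17 ± 0.518 against 4.35 ± 0.678), Npr3 (15.4 ± 0.970 against 26.8 ± 0.416) and the BMP receptor gene Acvrl1 (54.9 ± 0.768 against 81.3 ± 2.7) fell (log2 fold changes -0.87, -0.79 and -0.56). The angiopoietin gene Angpt1, a ligand of Tek, rose from 2.88 ± 0.166 to 8.58 ± 0.394, and thrombomodulin Thbd rose by 0.55 in log2 units.

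**Figure D4:**
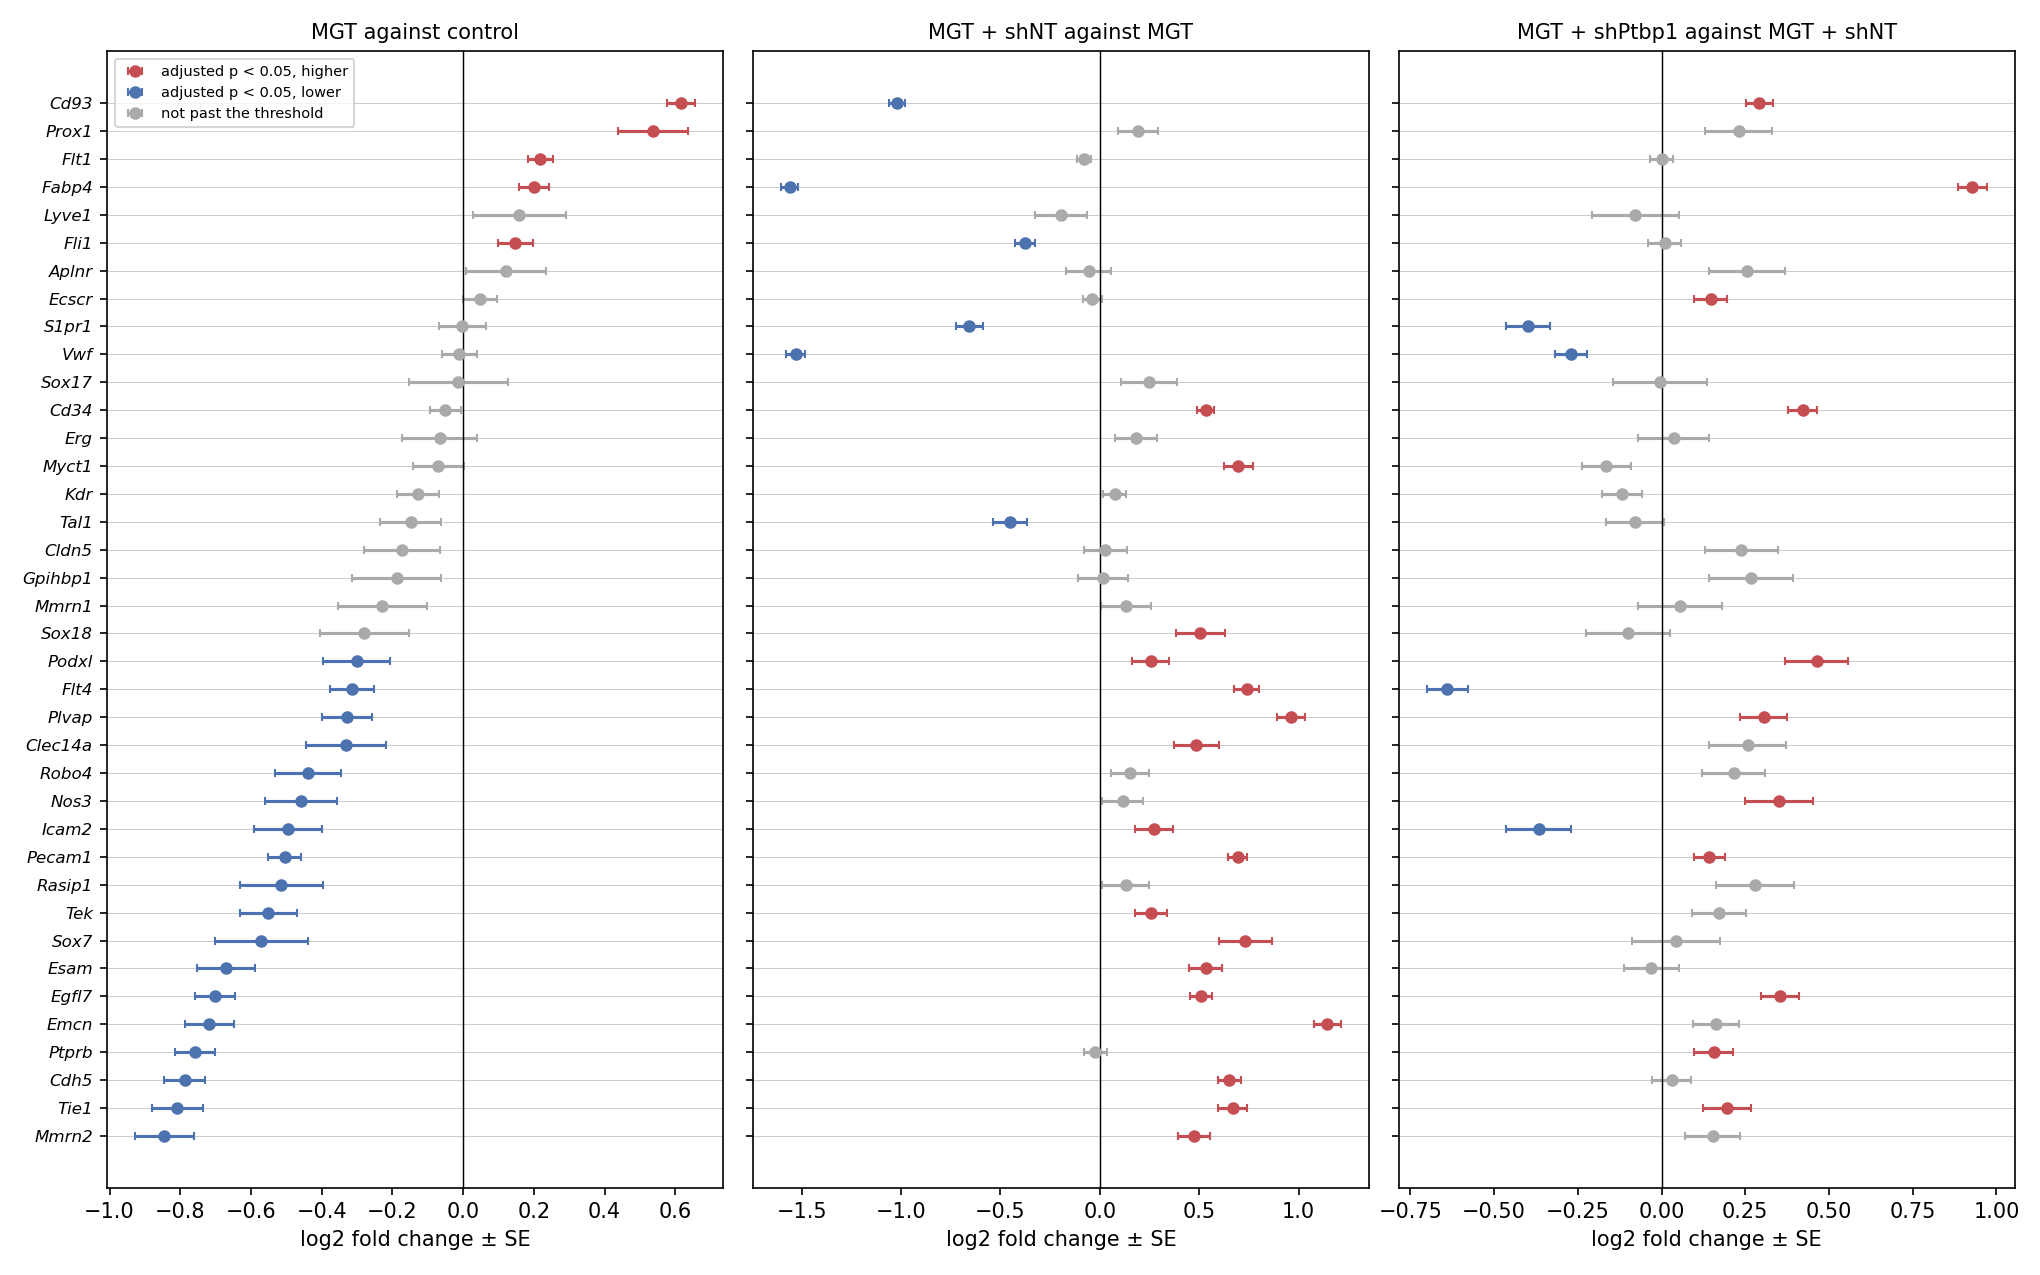
Log2 fold change with SE of each endothelial gene in the 3 comparisons of day 3 cultures, in the order of the first panel; each panel has its own axis range, and neighbouring panels share the libraries of 1 group. Blue points with MGT, such as Cdh5 and Tie1, and Cd93 in red can be followed across the panels.

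Adding the non-targeting hairpin lentivirus to MGT moved the list in both directions. Vwf fell from 26.7 ± 0.842 to 8.92 ± 0.581 scaled CPM (log2 fold change -1.53 ± 0.0489, adjusted p = 6.14e-15), Fabp4 from 21.3 ± 0.0146 to 6.91 ± 0.118 (-1.56 ± 0.0433, 8.32e-16) and Cd93 from 452 ± 4.44 to 223 ± 4.3 (-1.02 ± 0.0402, 1.44e-13). Emcn rose from 9.94 ± 0.384 to 22.6 ± 1.08 (1.14 ± 0.0687, 8.18e-11), and Plvap from 8.77 ± 0.478 to 17.6 ± 0.919 (0.96). The comparison shares the MGT libraries with the one before, so a low or high value in them enters both. Cdh5 was 15.8 and 18.8 with MGT and 28.1 and 26.6 with shNT, beside 29.4 and 30.8 with control vector.

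By limma 17 of 38 genes were higher with shNT, 6 were lower and 15 were not called. Background shares were 24.6% higher and 20.1% lower, 44.7% in all. The median log2 fold change was 0.19, against 0.02 over all genes. Higher were 7 of 9 junction and adhesion genes, among them Pecam1 (0.69), Cdh5 (0.65), Esam (0.53) and Cd34 (0.53), and the receptors Flt4 (0.74), Tie1 (0.67) and Tek (0.26). Sox7 and Sox18 rose by 0.73 and 0.51 in log2 units. Besides Fabp4, Vwf and Cd93, the lower genes were S1pr1 (-0.66), Tal1 (-0.45) and Fli1 (-0.38). Changes of at least 2-fold numbered 1 higher, Emcn, and 3 lower, with 0.272% and 3.24% of all genes past that size. The fit of the 8 day 3 libraries alone gave 13 higher and 7 lower of 31.

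Macrophage markers moved in the same direction as the 6 genes that fell. All 10 were lower with shNT, with a median log2 fold change of -1.77, and their sum was 1399.5 and 1459 against 4047 and 3933. Over all genes 20.1% were lower. The mannose receptor Mrc1 was 32.0 and 32.0 against 257 and 251, and the complement gene C1qa 59.6 and 62.2 against 291 and 279. The platelet factor gene Pf4, which cardiac macrophages can also make, was 14.1 and 14.6 against 59.5 and 50.5. Among 50 other endothelial genes, Stab1, a scavenger receptor of both endothelium and macrophages, fell from 455 ± 8.11 to 57.1 ± 3.82, Lmo2 from 35.4 ± 0.552 to 7.98 ± 0.178 and Thbd from 29.3 ± 0.425 to 13.3 ± 0.985. Of these 50 genes 16 rose and 16 fell, with Npr3, Edn1 and Gpr116 higher by 0.60, 0.67 and 0.71 in log2 units. The share called was 64%, against 44.7% of all genes. The part of macrophages in the endothelial values was not tested. The calls of Tek, Sox18, Clec14a, Icam2 and Podxl ended in at least 1 alternative.

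**Figure D5:**
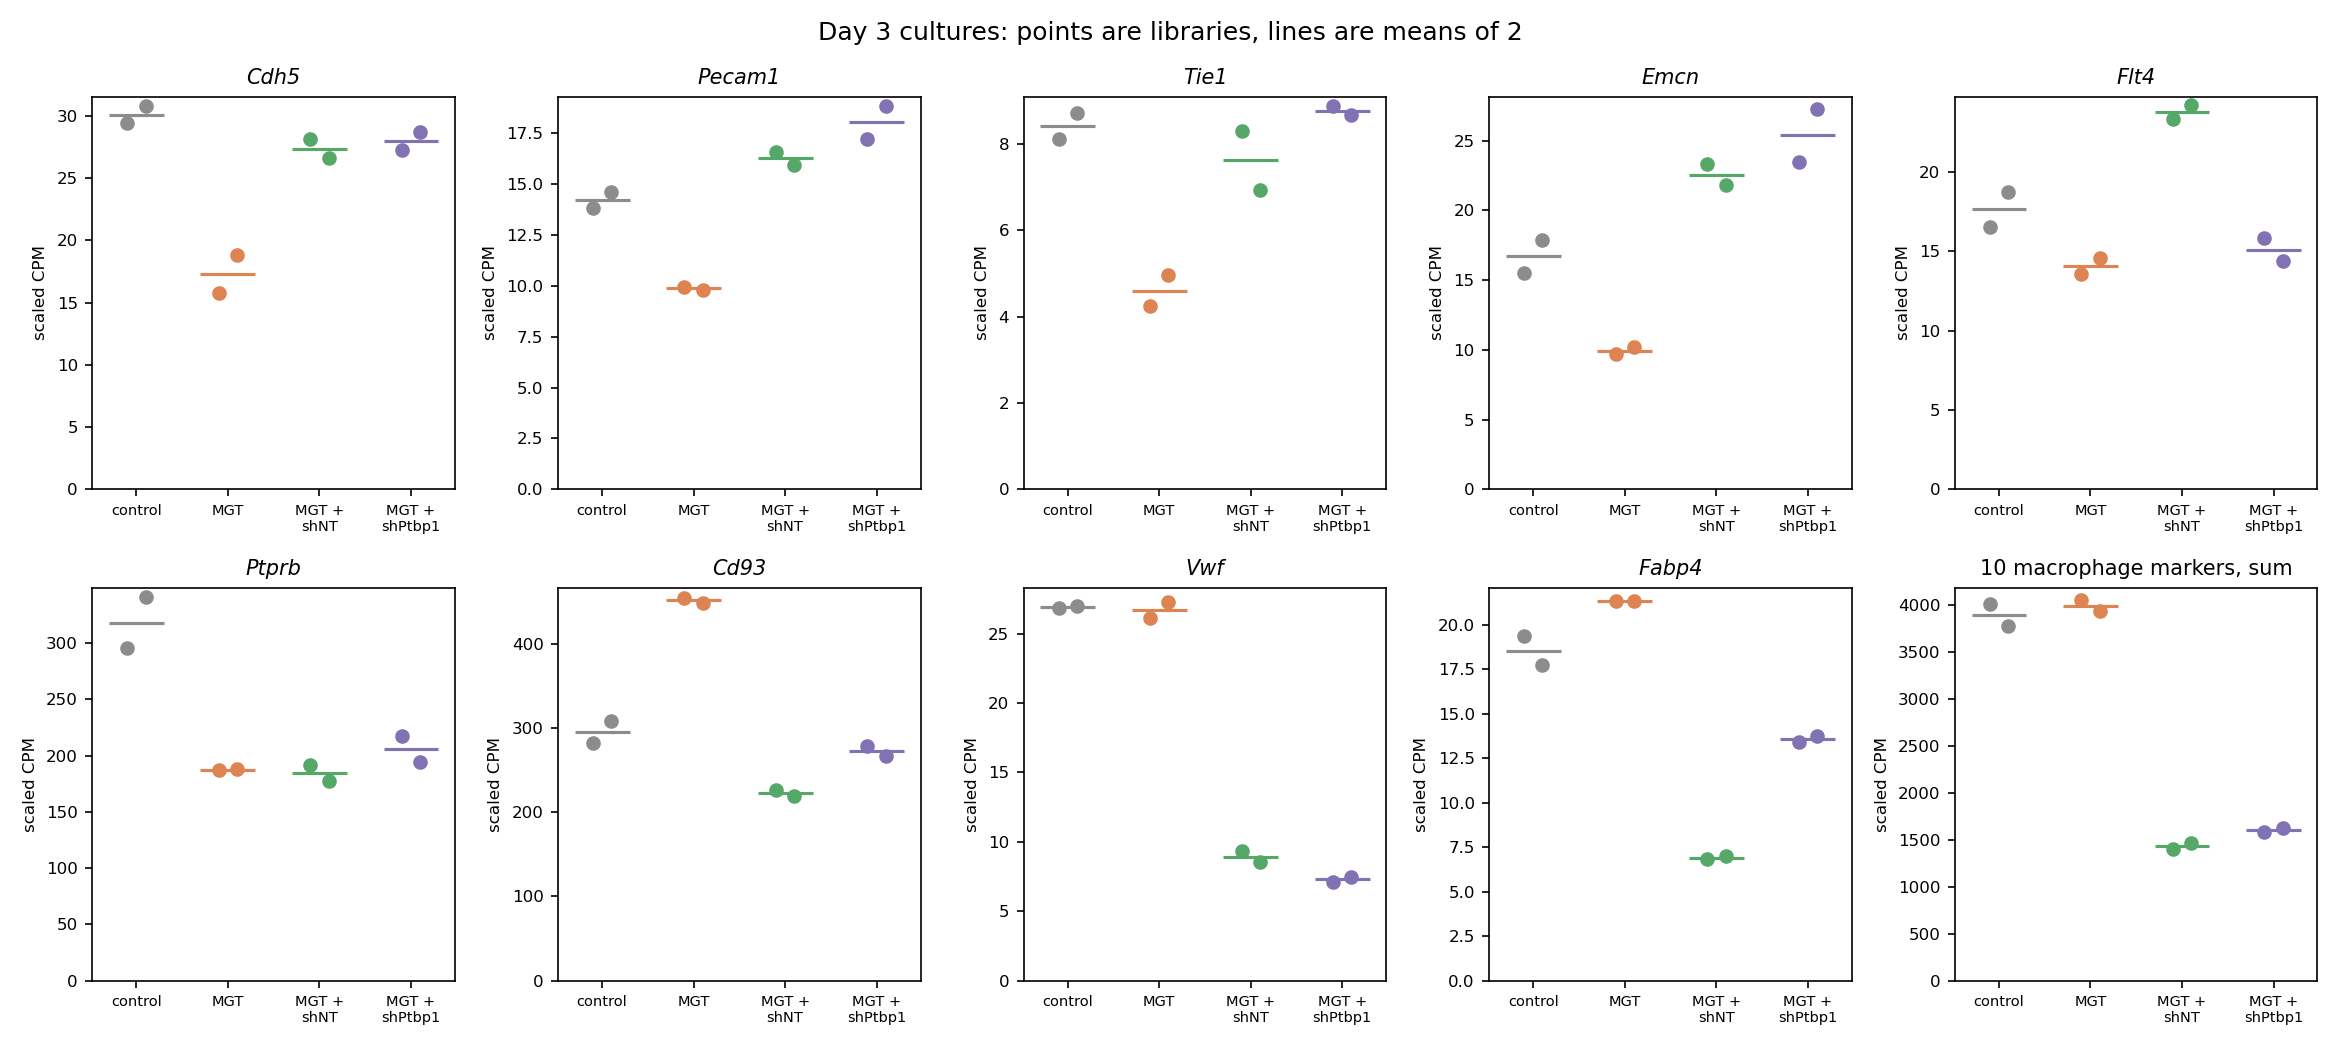
Scaled CPM of 9 endothelial genes and the sum of 10 macrophage markers in the 8 day 3 libraries; points are libraries and lines group means, and each axis starts at 0. Cdh5, Pecam1, Tie1 and Emcn are lowest with MGT, while Vwf and the macrophage sum are low in both hairpin groups.

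Ptbp1 silencing was examined as shPtbp1 against shNT, both with MGT. Fabp4 rose from 6.91 ± 0.118 to 13.6 ± 0.235 scaled CPM (log2 fold change 0.93 ± 0.0433, adjusted p = 1.5e-11), and Cd34 from 45.9 ± 0.752 to 61.7 ± 2.91 (0.42 ± 0.0427, 3.77e-07). The lymphatic receptor Flt4 fell from 23.8 ± 0.612 to 15.1 ± 1.04 (-0.64 ± 0.0617, 2.05e-07), a level beside that of MGT alone (14.1 ± 0.711). Cdh5 (0.03 ± 0.0573, 0.731) and Kdr (-0.12 ± 0.0585, 0.131) did not pass.

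By limma 11 of 38 genes were higher with shPtbp1, 4 were lower and 23 were not called. Background shares were 17% higher and 17.8% lower, 34.8% in all. The median log2 fold change was 0.15, against 0 over all genes, and no gene on the list was called with a 2-fold change (0.429% of all genes upwards and 0.222% downwards). Podxl, Egfl7, Nos3, Plvap and Cd93 rose by 0.46, 0.35, 0.35, 0.31 and 0.29, and Tie1, Ptprb, Ecscr and Pecam1 by 0.20 to 0.14, all in log2 units. S1pr1, Icam2 and Vwf fell (log2 fold changes -0.40, -0.37 and -0.27). Of the 7 transcription factors 0 were called by limma, and at an unadjusted p below 0.05 there was 1, Prox1 (adjusted p = 0.0816). The count of 11 became 7 without shPtbp1 replicate 2, the library with the label that names Ptbp2, and 7 without shNT replicate 2. It became 6 with no filter on low values. The fit of the 8 day 3 libraries alone gave 8 higher and 3 lower of 31. The calls of Pecam1, Tie1, Ecscr, Plvap, Nos3, Icam2 and Ptprb ended in at least 1 alternative.

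Of 10 macrophage markers 6 were lower with shPtbp1 and 1 was higher, the lysozyme gene Lyz2, and their sum was 1578 and 1627 against 1399.5 and 1459. Of 10 fibroblast markers 5 rose and 1 fell, and of 10 cardiomyocyte markers 6 rose. Over all genes 17% were higher and 17.8% lower. Of the 50 other endothelial genes 13 rose and 9 fell, 44% in all, against 34.8% of all genes. Those higher were led by Angpt1 (0.73), Angptl4 (0.63) and Thbd (0.47). Those lower were led by the gap junction gene Gja5 (-0.54) and the VEGF family ligand Pgf (-0.50). The part of other cells was not tested.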

How the data were processed

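The values are CPM as the authors deposited them, in 1 table of 23423 genes and 12 libraries, made from polyadenylated RNA per the labels' protocols. FastQC, TopHat2 2.1.0, HTSeq 0.6.1p1 and mm10 are named in the submitters' processing notes. Neither the annotation nor how HTSeq treated strand is given in the sources used here, so reads of genes that overlap, or lie antisense, may have been counted for either. Columns were matched to samples by name. All values were whole multiples of 1 read (100%, tolerance 0.1 reads), which gave back the reads. Rows with a number in place of a gene name (27) were tested like the rest, unnamed.

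Each library's CPM was divided by its median-of-ratios size factor. Genes reaching 1 CPM in 2 or more libraries (13977) were tested on log2(scaled CPM + 0.5) with limma 3.58.1 (R 4.3.3). The model held 1 mean per group, 6 residual degrees of freedom and a trended prior. All tests were two-sided and adjusted by Benjamini-Hochberg within a comparison, and the procedure was tested on simulated data. A permutation of 2 against 2 libraries cannot go below p = 0.333 and was not run. Replicates differed by more than sampling noise (chi-square per degree of freedom 3.61 to 16.3). Alternatives were no or upper-quartile scaling, pseudocounts of 0.1 and 2, no filter, edgeR 4.0.16 on the recovered reads, a replicate block, a fit of the 8 day 3 libraries, and each replicate left out. Members and lists were chosen with earlier results of these data known. By the naming rule, genes at 10 scaled CPM or more in a group (38 of 38) are given in every library. Genes of other lists were named at a called change of at least 2-fold with 10 scaled CPM in the higher group, or as defining markers, and those outside this rule were chosen after their values were seen. Positions and exon lengths are from GENCODE M21 (GRCm38, the same assembly as mm10) and promoters from RefSeq, without those on chromosome 18. Figures were drawn with matplotlib 3.10.9.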

Additional observations from a re-analysis of the deposited data

How the results depend on the processing

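Counts of endothelial genes called in each direction stayed within 1.5 times of the reported value under each alternative that was run, except those higher with shPtbp1 against shNT. These were 11, and 6 with no filter on low values. With 1 library left out they were 7 to 12, the 7 without shNT replicate 2 and without shPtbp1 replicate 2. No gene on the list that was called changed direction under any of them. Of 2183 values of single genes under an alternative, 83 lost and 31 gained a call. The quasi-likelihood test of edgeR gave counts, higher and lower, of 20 and 10 for cardiomyocytes, 0 and 37 for control cultures, 5 and 19 for MGT, 16 and 7 for shNT and 13 and 4 for shPtbp1. Over all genes, those lower with MGT were 2465, and 1577 without MGT replicate 2, and those lower with shPtbp1 were 2493, and 1656 without shNT replicate 1. A replicate block gave 19 and 8, 0 and 37, 5 and 18, 17 and 6, and 9 and 4. The replicate numbers come from the titles alone. Same-numbered libraries deviated together at a correlation above 0.1 in 1 of 15 pairs of groups (-0.14 to 0.16), that of shNT and shPtbp1. With 2 libraries per group this cannot show whether same-numbered libraries shared a batch. Leaving out 1 replicate leaves 1 library in a group, which is then assumed to vary like the others. At day 3 Aplnr, Cldn5, Gpihbp1 and Mmrn1 lay below 1 scaled CPM, and a library held 1 to 23 reads of each. The main limma fit called no difference between cultures for these genes at this depth. Some alternatives gained a call, for Aplnr, Cldn5 and Gpihbp1 with shPtbp1 against shNT and for Mmrn1 with MGT against control.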
